A study of Mus musculus with 8 samples.

Results

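The transcriptome of immortalized mouse embryonic fibroblasts (MEFs) that lack Opa1 and had OPA1 put back was described from 4 RNA-seq libraries, chosen by their titled genotype (Opa1-/- + OPA1) out of 8 libraries in the series. The series was made to see what losing OPA1 does to the transcriptome, with genes of ferroptosis in view. The other libraries, from the Opa1-/- cells without OPA1, were not used here, so every value below is a level in the reconstituted cells and none is a difference between genotypes. The labels name no treatment, and the cells grew in DMEM with fetal bovine serum, penicillin and streptomycin. The labels do not say how the cells were immortalized, whether the line is a clone, which species or isoform of OPA1 was put back, or whether the 4 libraries came from separate cultures, so the spread given here may be technical. They are called libraries 1 to 4 after the numbers in their titles.

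Fibroblasts are the connective tissue cells that lay down collagen and other matrix, hold themselves to it through integrins, and pull on it with actin and non-muscle myosin. In culture they grow in response to serum factors that act through receptor tyrosine kinases and G protein-coupled receptors. OPA1 is a dynamin-family GTPase of the mitochondrial inner membrane, which it fuses and whose cristae it shapes. Many proteins of these cells are made from families of closely related genes, or paralogs, and which paralog a cell uses is part of its identity.

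Values are in TPM (transcripts-per-million), in which reads on each gene are divided by the gene's length and scaled so that each library sums to 1000000. TPM can be compared between genes of a library. A gene's mean is given ± SD over the 4 libraries (n = 4). The libraries held 56376813 to 57800695 gene-assigned reads as recovered from the steps between low TPM values. A gene was counted as present at a mean of 1 TPM or more. Each library had 14103, 14014, 14276 and 14035 genes at 1 TPM or more, of 49315 listed, and 98, 99, 112 and 100 genes at 1000 TPM or more, in the order of libraries 1 to 4. Opa1 itself was measured at 15.4, 14.1, 15.7 and 14.2 TPM in the 4 libraries, a mean of 14.8 ± 0.828 TPM, at chr16:29579334-29654884 in GENCODE M21 on GRCm38. A mouse gene count says nothing of which OPA1 sequence the reads came from, since the labels do not give the transgene.

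The gene with the highest TPM was not a messenger RNA but a short annotated noncoding gene. Gm23935, annotated as a miRNA gene at chr16:11144125-11144181 with a length of 57 bases, was listed at 108939, 110518, 42701 and 109499 TPM in libraries 1 to 4. Gm24270, at chr9:56223715-56223771 on the opposite strand, was listed at 12791, 13064, 4540.2 and 11948 TPM. The annotated sequences of these genes are shown because they match at 57 of 57 bases, while their TPM values differ 8.46 to 9.405-fold.
Gm23935: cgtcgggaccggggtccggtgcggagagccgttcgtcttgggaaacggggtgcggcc
Gm24270: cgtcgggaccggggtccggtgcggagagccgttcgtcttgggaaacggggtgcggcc
Reads from the shared bases cannot be told apart, so the split between Gm23935 and Gm24270 is uncertain. Mir6236, a miRNA gene at chr9:110281287-110281409, stood at 2701, 3801, 1165 and 3325 TPM, and its mature product in RefSeq (GRCm38.p6, chr9:110281353-110281371, plus strand) is shown with its seed, bases 2 to 8, in capitals.
mmu-miR-6236: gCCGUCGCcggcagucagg
The libraries were made with a kit for long RNA and not for small RNA, so these TPM values count reads on the annotated gene and not a mature miRNA. The long noncoding gene Gm42418 at chr17:39846958-39848788 had 11587, 14751, 4491 and 11652 TPM. Library 3 was the lowest of the 4 for each of these genes, by a factor of more than 2 against each other library.

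Together Gm23935, Gm24270, Mir6236 and Gm42418 took 13.6, 14.2, 5.29 and 13.6% of TPM in libraries 1 to 4, but 0.957, 1.18, 0.338 and 0.965% of the recovered reads. The gap follows from the arithmetic of TPM, which divides reads by length and so gives a gene of 57 bases a large weight per read. Because TPM sums to a fixed total, the smaller share in library 3 goes with higher TPM of most other genes there: the median gene at 10 TPM or more stood 1.11 times the mean of the other libraries in library 3, against 0.973, 0.951 and 0.968 times in libraries 1, 2 and 4. Where the spread between libraries is described, values are therefore also given as rescaled TPM. This sums to 1000000 after genes annotated as miRNA, snoRNA, snRNA or similar small RNA, and Gm42418 and Gm26917, are left out. They are called structural RNA genes here for short. Together they held a mean of 12.5% of TPM, and genes annotated as miRNA 10.9%.

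**Figure D1:**
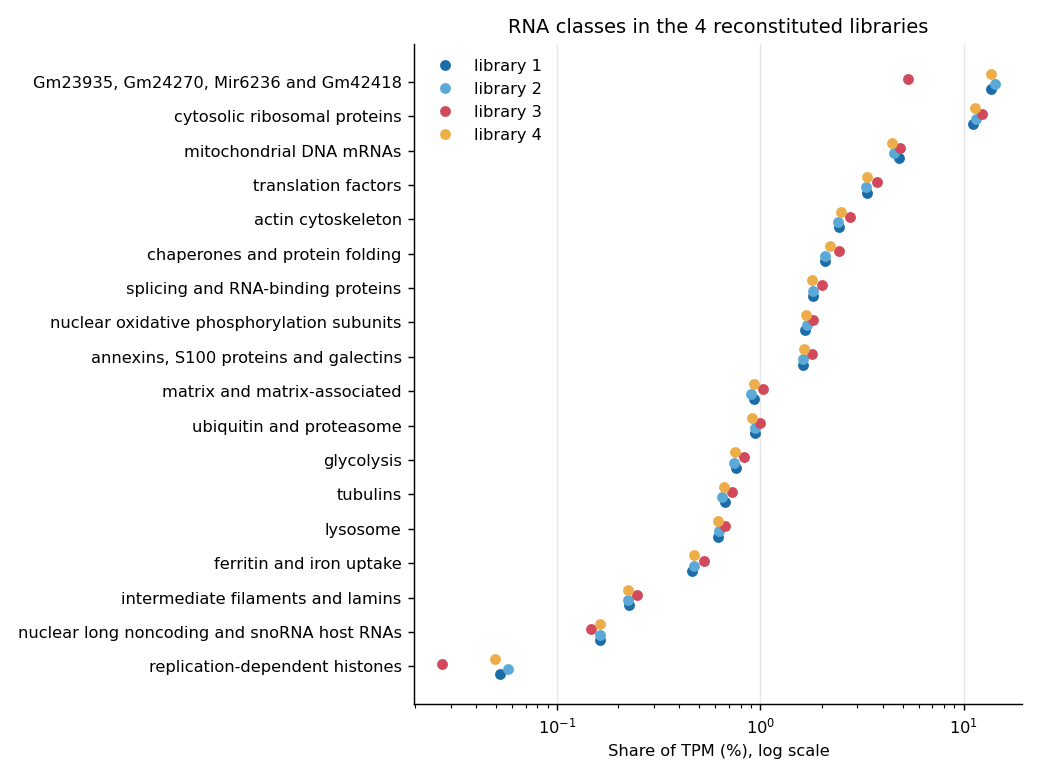
Share of TPM (log axis, percent) of each gene class, with a point per library. The top row is Gm23935, Gm24270, Mir6236 and Gm42418 summed, where library 3 lies at 5.29% and the others at 13.6% to 14.2%, and library 3 is lowest again for replication-dependent histones.

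Translation dominated the messenger RNA. The 79 cytosolic ribosomal protein genes, the protein parts of the ribosome, took 11.1, 11.4, 12.2 and 11.4% of TPM in libraries 1 to 4, a mean of 11.5 ± 0.494%, and each of them had a mean of 100 TPM or more. Rplp1, of the ribosomal stalk, led them at 7198, 7364, 7650.2 and 7225 TPM, a mean of 7359 ± 207. It was followed by Rps12 at 6321 ± 256 TPM, Rpl8 at 5193 ± 272 TPM and Rps26 at 4385 ± 236 TPM. The median over the list was 963 TPM.
The 51 translation factor genes added 3.42 ± 0.205%, of which Eef1a1, the elongation factor that brings aminoacyl-tRNA to the ribosome, made up 35.6%. Eef1a1 was listed at 11816, 11744, 13307 and 11832 TPM, and Eef2, which moves the ribosome along the message, at 3038, 2944, 3387 and 3009 TPM.

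For several of these genes the counting is uncertain because other annotated genes, many of them processed pseudogenes, repeat their sequence. As a measure of this, 60% of the distinct 50-base words in the transcripts of Rplp1 occur again in another annotated gene, as do 40.4% of those of Eef1a1 and 44.7% of those of Rpl17. Rps2, of the small ribosomal subunit, stood at 1516 ± 117 TPM, below its pseudogene Rps2-ps10 at 4138 ± 263 TPM, 96.3% of whose words recur elsewhere. Ferritin light chain showed the same order, with Ftl1 at 566 ± 35.9 TPM and the copy Ftl2 at 1950.5 ± 138 TPM. Gm8730, another ribosomal protein pseudogene with 73.7% of words shared, had 2629 ± 127 TPM.
Gm10736, annotated at chr13:111593534-111593611 on the minus strand, had 2348 ± 193 TPM against 2405 ± 114 TPM for Rpl41, a small ribosomal protein. Its whole annotated sequence is shown because all 78 bases occur unchanged in a transcript of Rpl41, with the start and stop codons in capitals.
Gm10736: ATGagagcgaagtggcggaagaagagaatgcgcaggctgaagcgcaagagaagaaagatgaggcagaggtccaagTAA
A read that lies within these bases could come from Gm10736 or from Rpl41.

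Mitochondrial DNA supplied 13 protein-coding genes, which took 4.803, 4.53, 4.86 and 4.46% of TPM. These genes code for subunits of respiratory complexes I, III and IV and of ATP synthase, and are read from long transcripts of the mitochondrial genome. The cytochrome oxidase subunit gene mt-Co1 had 12369, 11702, 12695 and 11929 TPM, the complex I subunit gene mt-Nd1 had 12802, 12114, 12239.5 and 11057 TPM and the complex III subunit gene mt-Cytb had 8843, 8361, 8806 and 8102 TPM. The genes fell into a high and a low set: 7 of 13 lay above 1000 TPM and the other 6 below 25 TPM. In the low set mt-Co2 had 19.4 ± 2.61 TPM, mt-Atp6 16.9 ± 2.16 TPM, mt-Co3 10.7 ± 1.42 TPM, mt-Nd4l 7.196 ± 1.03 TPM and mt-Nd3 5.59 ± 0.562 TPM. For these 5 genes between 97.99% and 100% of words recur in another annotated gene. In the high set the share was 0% for mt-Nd1, mt-Cytb and mt-Nd6, 7.61% for mt-Nd5 and 8.19% for mt-Nd2, but 51.1% for mt-Co1 and 62.2% for mt-Nd4, which had 1780.2 ± 94.5 TPM. The part of shared sequence in the low values was not tested. The remaining low gene, mt-Atp8, had 22.1 ± 2.99 TPM with 0% of words shared with annotated transcripts.
Nuclear genes for subunits of the same complexes, 78 in the list, took 1.72 ± 0.0726% of TPM, and each was above 10 TPM. Atp5b and Atp5a1, the catalytic core of ATP synthase, had 1099 ± 58.01 and 977 ± 50.3 TPM, and Cox8a of cytochrome oxidase had 966 ± 54.96 TPM.

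By TPM the cytoskeleton came next. This order rests on the division by length: as a share of recovered reads the mitochondrial messages took 1.86%, below the actin cytoskeleton at 2.93%, splicing and RNA-binding proteins at 2.75% and chaperones at 2.58%, while cytosolic ribosomal proteins at 6.53% and translation factors at 3.84% still led the classes. The 65 actin cytoskeleton genes took 2.52 ± 0.169% of TPM. Actb, the cytoplasmic beta-actin, had 2373, 2339, 2684 and 2446 TPM and Actg1, the gamma-actin, had 2235, 2038, 2536 and 2239 TPM, so that their ranges overlapped although Actb was higher in 4 of 4 libraries. The myosin light chain Myl6 had 2155 ± 176 TPM, the actin-monomer-binding Tmsb10 2010.0 ± 81.5 TPM and the severing protein Cfl1 1859 ± 91.7 TPM. Among intermediate filaments Vim made up 59.5% of the list's TPM. Tubulins of microtubules summed to 6772 ± 359 TPM, led by Tuba1b at 1858 ± 118 TPM and Tubb5 at 1827 ± 88.9 TPM.

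Other abundant genes had roles in folding, calcium-dependent membrane binding and metabolism. Chaperone and protein folding genes took 2.204 ± 0.17% of TPM, with Hsp90ab1 at 5236, 5108, 5806 and 5155 TPM in the 4 libraries. Annexins, S100 proteins and galectins took 1.67 ± 0.0841%, and the galectin Lgals1, a secreted lectin that binds galactose-bearing glycans, made up 50.9% of that at 8253, 8226, 9060.1 and 8418 TPM. Lgals1 was the most abundant gene outside translation, mitochondrial DNA and the structural RNA genes, and none of its words were shared with another gene.
Splicing and RNA-binding protein genes took 1.86 ± 0.0994%, led by the nucleolar chaperone Npm1 at 2553 ± 143 TPM. The ubiquitin and proteasome list took 0.947 ± 0.036%, led by the polyubiquitin gene Ubb at 855 ± 40.4 TPM, and the lysosome list 0.633 ± 0.0253%, led by Cd63 at 2283 ± 81.3 TPM. Glycolysis took 0.771 ± 0.0399%, with Gapdh at 1545 ± 75.02 TPM, Pkm at 1382 ± 84.1 TPM and Pgk1 at 892 ± 57.2 TPM. The iron-storing ferritin heavy chain Fth1 stood at 2577, 2634, 2917 and 2575 TPM, and the transferrin receptor Tfrc, which brings iron in, at 111 ± 11.4 TPM, while the iron exporter Slc40a1 was at 0.392 ± 0.0655 TPM. The class lists together, each gene counted once, covered 715 genes and 34.5 ± 1.59% of TPM.

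Expression was concentrated in few genes. The 100 most abundant genes of each library took 37.7, 38.2, 31.4 and 37.6% of TPM, and 295, 280, 420 and 291 genes made up 50% of it. On rescaled TPM the 100 most abundant genes took 28.6, 28.7, 28.3 and 28.5%, so the low value of library 3 on deposited TPM was not seen once structural RNA genes were left out. Protein-coding genes as annotated took 80.8, 80.3, 88.9 and 80.8% of deposited TPM, and processed pseudogenes 2.36 ± 0.101%.

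The labelled cell type was checked against 35 mesenchymal and fibroblast markers. Of these, 28 had a mean of 1 TPM or more, as did 11264 of 21811 protein-coding genes, and together the markers summed to 5188, 5055, 5763 and 5236 TPM in libraries 1 to 4. P4hb, a subunit of collagen prolyl hydroxylase that other secretory cells also use, had 566, 550.0, 629 and 577 TPM, and Vim, the intermediate filament of mesenchymal cells, had 1332, 1315, 1490.4 and 1346 TPM. The chains of type I collagen, the main fibrillar collagen of connective tissue, were Col1a2 at 565, 539, 599 and 549 TPM and Col1a1 at 444, 429.9, 487 and 451 TPM, and Col1a2 was higher in 4 of 4 libraries. Fibronectin, Fn1, a matrix glycoprotein to which integrins bind, had 532 ± 44.96 TPM, and the collagen-binding Sparc had 277 ± 21.6 TPM. Transcription factors of mesenchyme were present, with Twist1 at 199, 206, 226 and 204 TPM, Prrx2 at 112 ± 6.19 TPM, Prrx1 at 94.6 ± 6.09 TPM and Snai1 at 80.95 ± 5.796 TPM. The other members at 10 TPM or more included Cd44 at 156 ± 13.3 TPM, Mmp2 at 148 ± 11.2 TPM, S100a4 at 132 ± 4.86 TPM, Ddr2 at 85.9 ± 8.56 TPM and Cdh11 at 41.04 ± 2.46 TPM.

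Several markers that are often used to sort or name fibroblasts were low. Thy1, the surface protein CD90, had 2.58, 2.396, 2.85 and 2.58 TPM and Pdgfra, the alpha receptor for platelet-derived growth factor, had 0.78, 0.789, 0.847 and 0.834 TPM. The podoplanin gene Pdpn stood at 0.615 ± 0.114 TPM and Nt5e, the surface enzyme CD73, at 0.188 ± 0.0377 TPM. Fap at 0.0328 ± 0.0213 TPM, Postn at 0.0379 ± 0.0162 TPM, Lum at 0.0522 ± 0.0477 TPM and Tcf21 at 0.0658 ± 0.0441 TPM were near 0. Type I collagen, vimentin and mesenchymal transcription factors were thus present as the label says, while these 8 surface, matrix and transcription factor markers were not or hardly so.

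**Figure D2:**
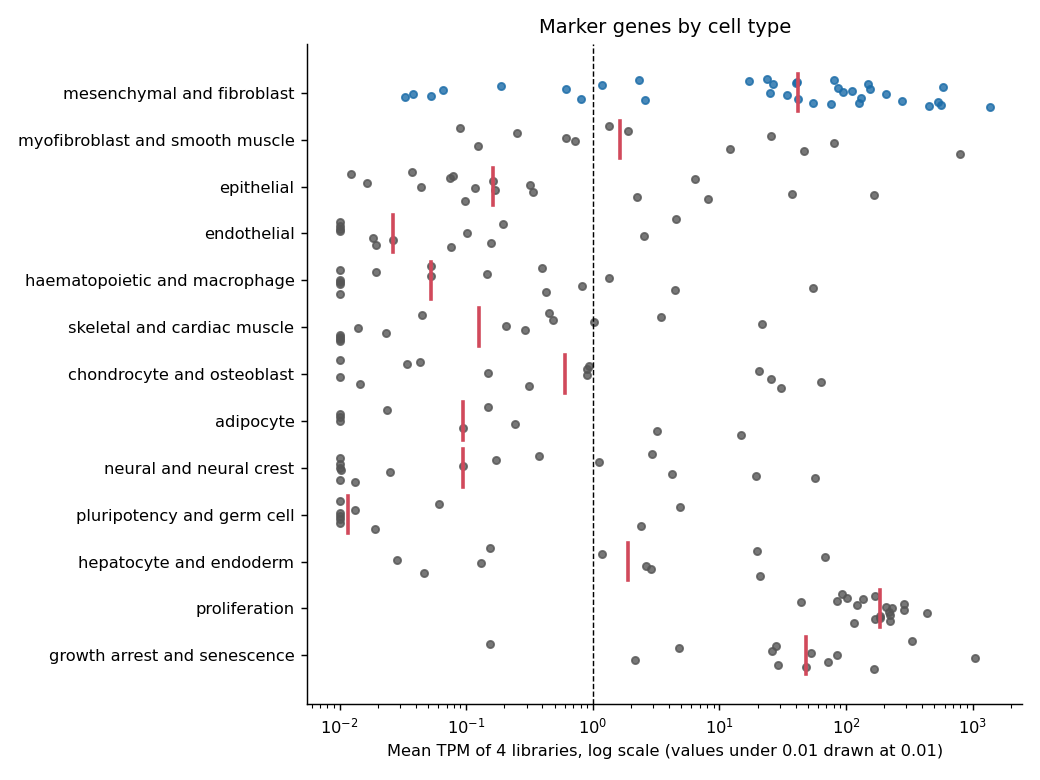
Mean TPM of 4 libraries (log axis) of each marker gene, with a row per cell type, a red bar at the row's median and a dashed line at 1 TPM. The mesenchymal median lies at 41.7 TPM, the proliferation median at 184 TPM and the endothelial median at 0.0266 TPM.

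Most markers of other cell types were below 1 TPM, with exceptions that are named here. The background for these counts is 11264 of 21811 protein-coding genes at 1 TPM or more. Of 13 endothelial markers 2 reached 1 TPM, Egfl7 at 4.56 ± 0.26 TPM and Flt1 at 2.55 ± 0.205 TPM, while Pecam1 stood at 0.0761 ± 0.0378 and Cdh5 at 0.0192 ± 0.0165 TPM. Of 15 haematopoietic and macrophage markers 3 did, with Cd14, a co-receptor for bacterial lipopolysaccharide, at 56.3, 55.6, 55.6 and 50.4 TPM, Cd68 at 4.49 ± 1.14 TPM and Fcer1g at 1.34 ± 0.343 TPM. Ptprc, which marks white blood cells as CD45, was at 0.00755 TPM.
Of 17 epithelial markers 5 reached 1 TPM. The keratin Krt18 had 182, 189, 159 and 131 TPM and Krt19 had 37.8, 38.1, 37.8 and 35.6 TPM, but Krt8, the usual partner of Krt18 in filaments, had 2.21 ± 0.341 TPM. The epithelial cadherin Cdh1 was at 8.09 ± 0.617 TPM, against 40.5 ± 3.05 TPM for the neural cadherin Cdh2, the splicing regulator Esrp2 was at 6.46 ± 0.413 TPM, and Epcam was at 0.0974 TPM.
Smooth muscle actin Acta2, a marker of myofibroblasts, had 647, 657, 962 and 891 TPM and made up 82.2% of the TPM of its list of 12 genes. The other members at 1 TPM or more were Myl9 at 80.9 ± 7.62 TPM, Tagln at 46.6 ± 9.61 TPM, Smtn at 25.8 ± 2.31 TPM, Cnn1 at 12.2 ± 2.1001 TPM, Actg2 at 1.91 ± 0.437 TPM and Itga8 at 1.34 ± 0.225 TPM. Libraries 3 and 4 were both above libraries 1 and 2 for Acta2.

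Skeletal, neural, fat, liver and germ cell lists held a few genes each. The chondrocyte and osteoblast list had Acan, the cartilage proteoglycan, at 63.2 ± 5.99 TPM, Sox9 at 30.7 ± 3.07 TPM, Col2a1 at 25.6 ± 2.73 TPM and Runx2 at 20.5 ± 1.59 TPM, while its late markers Sp7 and Bglap were at 0.894 ± 0.0438 and 0.934 ± 0.317 TPM. The endoderm list had the transcription factor Foxa2 at 65.6, 61.4, 75.5 and 72.1 TPM, serum albumin Alb at 19.6, 16.6, 27.9 and 19.5 TPM and Gata6 at 19.7 ± 1.62 TPM, with Ttr at 2.89 ± 1.06, Apoa1 at 2.61 ± 0.562 and Gata4 at 1.19 ± 0.105 TPM, and with Hnf4a at 0.131 and Afp at 0.0462 TPM. Library 3 was the highest for Alb on both deposited and rescaled TPM, whereas for Foxa2 library 4 was the highest on rescaled TPM, at 76.7, 72.3, 80.3 and 84.3 in libraries 1 to 4.
The neural list had Nes at 56.9 ± 4.95 TPM, Tubb3 at 19.4 ± 2.23 TPM, Map2 at 4.21 ± 0.517 TPM and Mitf at 2.96 ± 0.532 TPM. Of the muscle list the cardiac troponin gene Tnnt2 was at 21.6 ± 1.02 TPM, with Acta1 at 3.47 ± 0.614 and Tnnt3 at 1.01 ± 0.208 TPM. The adipocyte list had the nuclear receptor Pparg at 14.9 ± 2.22 and Cebpa at 3.24 ± 0.392 TPM, and the fat cell products Fabp4 and Adipoq were at 0.242 ± 0.077 and 0.095 ± 0.0469 TPM. Of the pluripotency and germ cell list Klf2 was at 4.92 ± 0.865 TPM and Nanog at 2.41 ± 0.29 TPM, with Pou5f1 at 0.0191 TPM. In bulk RNA a low level in every cell and a high level in few cells give the same value, and fewer cells of a type and less RNA per cell cannot be told apart.

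Genes of cell proliferation were expressed throughout. Of 19 proliferation genes 19 had 10 TPM or more, summing to 3520.1 ± 191 TPM. Of all 49315 listed genes, 8363 to 8666 had 10 TPM or more in a library, and 11264 of 21811 protein-coding genes had a mean of 1 TPM or more. The replication clamp Pcna had 427, 434, 469.8 and 430.5 TPM, Top2a 224 ± 17.1 TPM, the mitotic kinase Cdk1 221 ± 7.87 TPM and Mki67 116 ± 9.53 TPM. Beside them stood Cdkn2a, the locus of the p16 and p19 growth inhibitors, at 1021, 1056, 1093 and 1043 TPM, which made up 55.3% of the TPM of the growth arrest list. Trp53 was at 167 ± 11.5 TPM, its target and inhibitor Mdm2 at 47.9 ± 2.87 TPM, its target Cdkn1a at 29.1 ± 2.43 TPM, Cdkn2b at 85.5 ± 6.24 TPM and Cdkn1b at 72.1 ± 2.33 TPM. The retinoblastoma gene Rb1 was at 4.79 ± 0.5 TPM. A TPM value per gene does not separate the Cdkn2a transcripts that code for the different proteins, and does not show mutations.

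HOX genes, which record position along the body, were present by cluster. In a count made after the values were seen, 10 of 11 HoxA genes and 8 of 10 HoxB genes had 1 TPM or more, against 0 of 9 HoxC and 0 of 9 HoxD genes. Among protein-coding genes of any kind 11264 of 21811 did. The HoxA genes summed to 422 ± 17.9 TPM and were led by Hoxa5 at 98.1 ± 5.08 TPM, Hoxa7 at 81.9 ± 3.04 TPM and Hoxa10 at 55.6 ± 1.87 TPM. The HoxB genes summed to 152 ± 7.31 TPM and were led by Hoxb7 at 34.3 ± 3.25 TPM and Hoxb6 at 34.3 ± 0.932 TPM. The highest HoxC gene, Hoxc10, was at 0.473 ± 0.17 TPM. Among genes of the Y chromosome, Eif2s3y had 13.1 ± 1.103 TPM, Ddx3y 10.7 ± 1.14 TPM, Uty 2.83 ± 0.366 TPM and Kdm5d 2.38 ± 0.251 TPM, and Xist, the RNA that coats an inactive X chromosome, had 0.0786 ± 0.0181 TPM.

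The matrix list of 104 genes took 0.926, 0.899, 1.03 and 0.933% of TPM in libraries 1 to 4. In it 84 genes had 1 TPM or more, against 11264 of 21811 protein-coding genes of any kind. Serpinh1, the collagen chaperone of the endoplasmic reticulum, had 581, 590.1, 745 and 728 TPM and the proteoglycan Bgn had 588, 577, 720.1 and 627 TPM. The CCN protein Cyr61 was at 528 ± 53.4 TPM and the phosphoprotein Spp1 at 466 ± 26.7 TPM. Among the other fibrillar collagens Col3a1, which pairs with type I collagen in soft tissue, was at 76.1 ± 3.14 TPM and Col5a1 at 54.7 ± 4.41 TPM. Dcn, a small proteoglycan of fibroblast matrix, was at 34.5 ± 2.37 TPM, and Fbn1, which forms microfibrils, at 26.6 ± 2.23 TPM.

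Receptor genes were described over 485 genes in 12 lists. Of these, 237 had a mean of 1 TPM or more, 143 had 10 TPM or more and 23 had 100 TPM or more, with a median of 0.846 TPM. Among protein-coding genes of any kind 11264 of 21811 had 1 TPM or more. That is the background for this count and for the count of each receptor list below. Tnfrsf12a, the receptor for the cytokine TWEAK, stood above the other signalling receptors at 1199, 1173, 1197 and 1113 TPM. It made up 74.3% of the TPM of its list, in which Ltbr had 117 ± 6.67 TPM, Tnfrsf1a 79.4 ± 4.42 TPM, the decoy receptor Tnfrsf11b 45.6 ± 2.75 TPM, the TRAIL receptor Tnfrsf10b 32.8 ± 1.74 TPM and Fas 16.4 ± 3.02 TPM.

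Among 56 receptor tyrosine kinases, 30 had 1 TPM or more and Axl, whose ligands bind phosphatidylserine on dying cells, made up 36.04% of their TPM. Axl had 501, 485, 551 and 489 TPM. It was followed by the ephrin receptor Epha2 at 139 ± 7.91 TPM, the receptor for hepatocyte growth factor Met at 119.7 ± 7.39 TPM, Ryk at 86.3 ± 7.89 TPM and the collagen receptor Ddr2 at 85.9 ± 8.56 TPM. Epha2 exceeded Met in 4 of 4 libraries, whereas Ryk and Ddr2 did not differ beyond their spread. Of receptors for the classical fibroblast mitogens, Fgfr1 was at 55.9 ± 2.46 TPM, Pdgfrb at 40.6, 39.6, 45.2 and 41.5 TPM, Igf1r at 18.4 ± 1.39 TPM and Egfr at 9.39 ± 0.756 TPM.

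Integrins, the receptors for matrix, were concentrated in few chains. Of 26 integrin genes 13 had 1 TPM or more, and the beta-1 chain Itgb1, which pairs with many alpha chains, had 475, 464, 521 and 464 TPM, 53.4% of the list. The laminin-binding alpha chain Itga3 had 124 ± 8.37 TPM, Itgb5 118 ± 6.34 TPM, the fibronectin-binding Itga5 87.4 ± 4.27 TPM and Itgav 37.3 ± 3.26 TPM. In the list of guidance and adhesion receptors the tetraspanins Cd63 and Cd9 had 2283 ± 81.3 and 349 ± 20.7 TPM, basigin Bsg 710.0 ± 25.6 TPM, and the syndecan Sdc4 142 ± 5.81 TPM.

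For the TGF-beta superfamily, 10 of 14 receptors had 1 TPM or more, none above 100 TPM. Bmpr1a had 40.6 ± 2.69 TPM, Acvr1 24.3 ± 0.914 TPM, Tgfbr2 22.5 ± 0.994 TPM, Bmpr2 16.6 ± 1.26 TPM and Acvr1b 14.96 ± 0.994 TPM. For Wnt, Notch and Hedgehog signals Smo, the signal-passing protein of the Hedgehog pathway, led at 191, 187, 205 and 188 TPM. The Hedgehog co-receptor Gas1 had 88.3 ± 10.4 TPM, Fzd2 85.2 ± 2.42 TPM, Fzd6 51.3 ± 4.13 TPM, Lrp6 33.2 ± 2.56 TPM and Notch2 24.2 ± 2.12 TPM.
Of 52 cytokine and interferon receptors 26 had 1 TPM or more. The interferon gamma receptor chain Ifngr2 was at 40.7 ± 2.43 TPM, the interleukin 1 receptor Il1r1 at 36.4 ± 2.73 TPM, the interleukin 33 receptor Il1rl1 at 35.9 ± 5.06 TPM and the shared chain Il6st at 35.8 ± 3.55 TPM. The levels of these 4 genes overlapped between libraries. Of the 19 Toll-like and innate receptors 3 had 1 TPM or more: Cd14, Tlr2 at 5.8001 ± 0.706 TPM and Nod1 at 2.94 ± 0.453 TPM, with Tlr4, the partner of Cd14, at 0.91 ± 0.0852 TPM.

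Among G protein-coupled receptors, 34 of 117 genes had 1 TPM or more, against 11264 of 21811 protein-coding genes of any kind, and 18 were listed at 0 in 4 of 4 libraries. The thrombin receptor F2r had 155, 147, 159.6 and 143 TPM and the adhesion receptor Adgra2 113, 108, 124 and 115 TPM. Gprc5a was at 67.6 ± 4.32 TPM, the adrenergic receptor Adra2a at 41.5 ± 4.39 TPM and Adgra3 at 34.1 ± 1.72 TPM. Of 48 nuclear receptors 23 had 1 TPM or more. The retinoic acid receptor Rarg had 98.02, 96.9, 99.4 and 91.5 TPM and Nr2f6 88.4 ± 4.62 TPM, Rxrb 66.6 ± 4.28 TPM, the glucocorticoid receptor Nr3c1 61.8 ± 6.59 TPM and Nr2f2 54.7 ± 4.78 TPM. Among endocytic receptors Lrp1 had 172 ± 15.02 TPM, the urokinase receptor Plaur 139.5 ± 8.03 TPM and M6pr 99.1 ± 6.105 TPM, and in the list of glutamate, GABA and ligand-gated receptors the GABA receptor Gabbr1 had 30.1 ± 0.947 TPM and Grik5 28.05 ± 1.704 TPM.

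**Figure D3:**
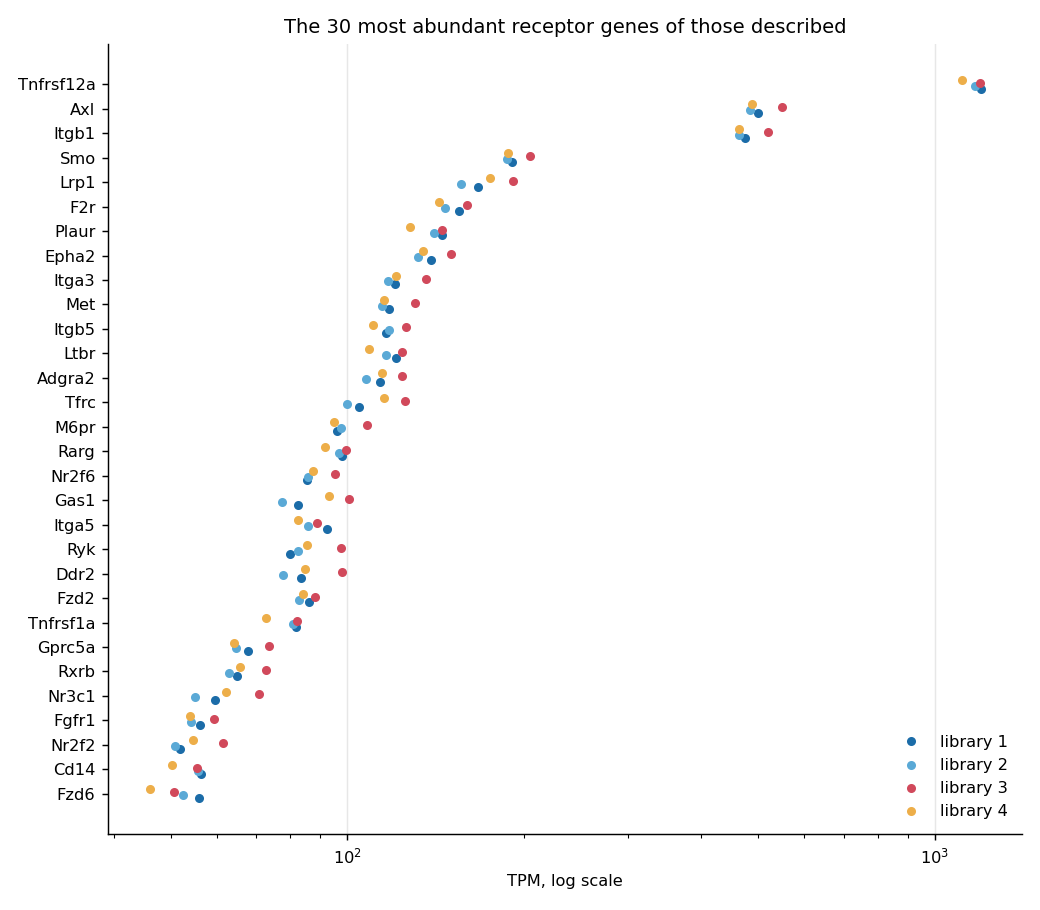
TPM (log axis) of the 30 receptor genes with the highest means among those described in the text, the guidance and adhesion list left out, with a point per library. Tnfrsf12a lies above 1000 TPM in each library, Axl and Itgb1 next at means of 506 and 481 TPM, and the points of a gene from different libraries lie close together compared with the steps between the leading genes.

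Of 110 growth factor and cytokine genes, 67 had 1 TPM or more, against 11264 of 21811 protein-coding genes of any kind, and 38 had 10 TPM or more. Mif, a cytokine stored in most cell types, had 1205, 1242, 1334 and 1244 TPM. The heparin-binding growth factors Mdk and Ptn had 213 ± 7.47 and 156 ± 15.2 TPM, the macrophage growth factor Csf1 179 ± 17.5 TPM, the chemokine Cxcl12 173 ± 8.85 TPM, and the Wnt protein Wnt10a 116, 117, 154 and 137 TPM. The EGF family member Hbegf had 127 ± 6.801 TPM, the activin subunit Inhba 106 ± 6.64 TPM, and the BMP antagonist Grem1 90.3 ± 6.98 TPM. Blood vessel growth factors and a neurotrophin were present, with Vegfb at 88.2 ± 4.099 TPM, Vegfa at 50.96 ± 2.85 TPM and Bdnf at 38.5 ± 1.81 TPM, as were the chemokines Ccl7 at 72.4 ± 16.5 and Ccl2 at 65.4 ± 7.78 TPM.

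Ligands and receptors of the same system were set side by side for 29 receptors, paired by textbook knowledge after the levels were known. In 14 of them both the receptor and its most abundant ligand had 1 TPM or more. In 8 the ligand passed without the receptor. Csf1 was at 179 TPM beside its receptor Csf1r at 0.817 ± 0.083 TPM, Bdnf beside Ntrk2 at 0.00405 TPM, and Kitl at 35.04 ± 2.68 TPM beside Kit at 0.189 ± 0.0257 TPM. Cxcl12 stood beside Cxcr4 at 0.0445 TPM and the atypical receptor Ackr3 at 26.8 ± 2.11 TPM.
In 7 the receptor passed while no ligand paired with it here did. Only the paired ligands were counted, so other ligands of these receptors are not covered. Smo was high while the hedgehog proteins Ihh and Shh, which act on it through their receptor, were at 0.165 and 0.0185 TPM. Il1rl1 stood beside Il33 at 0.559 ± 0.0833 TPM, Il1r1 beside Il1a at 0.0727 TPM, Tnfrsf1a beside Tnf at 0.0503 TPM, and Igf1r beside Igf2 at 0.131 and Igf1 at 0.0942 TPM. Gas6, the ligand paired here with Axl, was at 0.329 ± 0.0333 TPM. Of the other leading receptors, Tnfrsf12a stood beside Tnfsf12 at 12.4 ± 0.916 TPM and Met beside Hgf at 4.26 ± 0.859 TPM.

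The choice between paralogs was measured in 110 gene families as the share of the family's summed TPM taken by each member. A single member took 90% or more in each library in 31 families. The leading member had a mean share of 50% or more, short of that criterion, in 65 families, and under 50% in 14. The shares were steady between libraries: the same member led in 4 of 4 libraries in 108 families, and the SD of the leader's share had a median of 0.517 percentage points. A share does not depend on the scaling of a library. It does depend on reads that match more than 1 member, and 80 families had under 25% of words shared for every member, of which 20 were led at 90% or more.

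**Figure D4:**
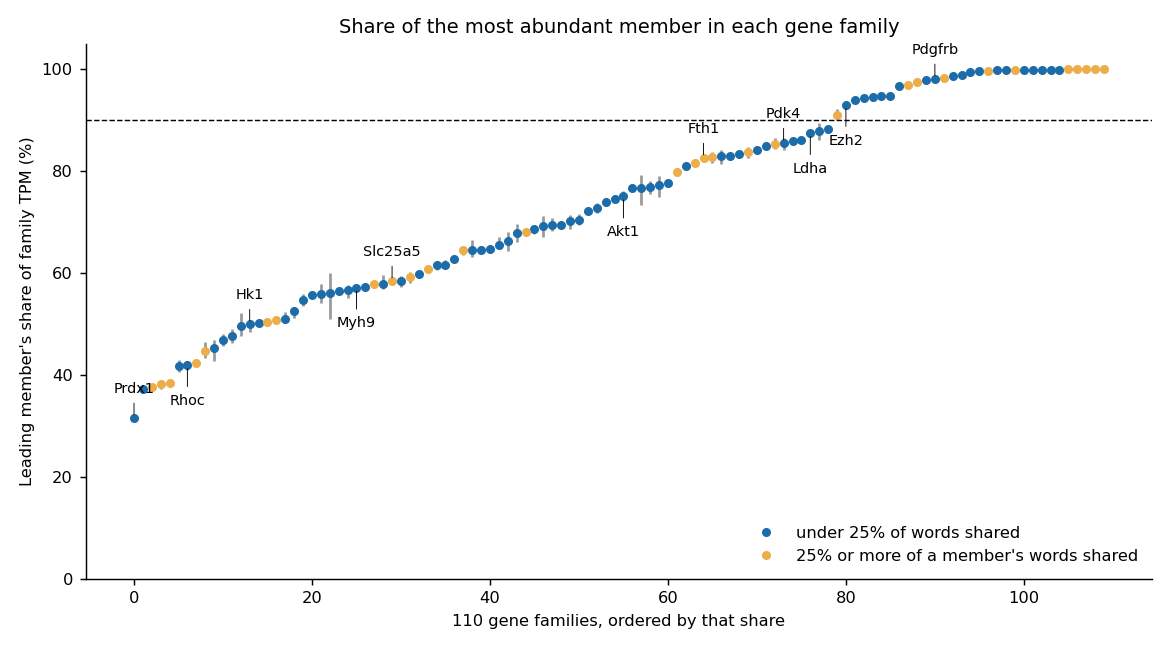
Share of the family's TPM taken by its leading member (mean of 4 libraries, with a line from the lowest to the highest library), for 110 families in order of that share. The dashed line marks 90%, and named points run from Prdx1 at 31.5% to Pdgfrb at 98.1%.

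Several enzyme and signalling families were nearly exclusive. Of the receptors for platelet-derived growth factor Pdgfrb took 98.1, 98.05, 98.2 and 98.03% in libraries 1 to 4. Hif1a took 99.9 ± 0.0552% of the hypoxia-inducible factors, with Epas1 at 0.0848 ± 0.0397 TPM. Atp2a2 took 99.7 ± 0.109% of the endoplasmic reticulum calcium pumps. Aldoa took 99.6 ± 0.0882% of the aldolases, Ccna2 99.96 ± 0.0363% of the A-type cyclins, Cdk4 96.7 ± 0.128% against Cdk6, Myc 98.8 ± 0.213% of the MYC family and Ezh2 93.04 ± 0.103% against Ezh1. Dnmt1, the maintenance DNA methyltransferase, took 94.7 ± 0.168%, with Dnmt3a at 6.06 ± 0.392 TPM. Among cytochrome oxidase subunits with muscle or tissue-specific copies, Cox4i1 took 97.9 ± 0.107%, Cox6a1 99.96 ± 0.0254%, Cox6b1 99.9 ± 0.0246% and Cox8a 99.98 ± 0.0192%. The tissue-specific copies Eef1a2, Rpl3l, Pklr and Pgk2 each took under 0.1% beside Eef1a1, Rpl3, Pkm and Pgk1.

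Other families had a clear leader with a minor partner. Ldha, the lactate dehydrogenase subunit of glycolytic tissue, took 87.5, 87.4, 87.9 and 87.3% and Ldhb took 12.5 ± 0.255%. Pdk4, a kinase that switches off pyruvate dehydrogenase, took 85.6, 84.3, 86.5 and 85.6% of its family at 333, 303, 409.6 and 367 TPM, and Pdk3 took 13.3 ± 0.835%. Slc2a1 took 77.2 ± 1.93% of the glucose transporters, Scd2 86.1 ± 0.4% of the stearoyl-CoA desaturases, Ccnd1 84.97 ± 0.334% of the D-type cyclins, Fosl1 82.8 ± 0.89% of the FOS factors, Fgfr1 83.5 ± 0.0833% of the FGF receptors, Notch2 83.1 ± 0.594% of the Notch receptors and Ptgs2 82.9 ± 1.33% of the cyclooxygenases. Akt1 took 75.1 ± 0.952% of the AKT kinases. In a list of 4 dynamin-related genes, Dnm1l, Opa1, Mx1 and Mx2, the fission protein Dnm1l took 84.2 ± 0.457% and Opa1 15.7 ± 0.483%. Fission and inner membrane fusion are different tasks, so this share is not a choice between equivalent genes. The labels do not give the transgene, so the Opa1 share may or may not include its reads. Of the mitofusins, which fuse the outer membrane, Mfn2 took 57.95 ± 1.15% and Mfn1 42.05 ± 1.15%. Sod1 took 94.1 ± 0.397% of the superoxide dismutases, against 5.77 ± 0.391% for the mitochondrial Sod2.

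In the remaining families the load was shared. Of the hexokinases, which start glycolysis, Hk1 had 36.1, 34.7, 38.6 and 35.6 TPM in libraries 1 to 4. Hk2 had 35.4, 33.7, 40.7 and 34.6 TPM, above Hk1 in library 3 and below it in the other libraries. The other family without a constant leader was the JUN factors. Jund had 147, 142, 161 and 151 TPM and Junb had 151, 149.6, 144 and 125 TPM, so that Junb led in libraries 1 and 2 and Jund in libraries 3 and 4, and Jun had 90.5, 91.4, 124 and 119 TPM. The non-muscle myosins Myh9 and Myh10 took 57.2 ± 0.386% and 42.8 ± 0.385%, the adenine nucleotide translocases Slc25a5 and Slc25a4 58.4 ± 0.789% and 41.6 ± 0.789%, and Tgfb3, Tgfb1 and Tgfb2 41.8 ± 1.08%, 39.6 ± 0.429% and 18.6 ± 0.898%. Dnm1, a dynamin best known from nerve terminals, took 54.8 ± 1.104% against 45.1 ± 1.12% for the widespread Dnm2, and led in 4 of 4 libraries. The coactivator Wwtr1 took 61.7 ± 0.729% against 38.3 ± 0.729% for Yap1. The peroxiredoxins had the lowest leading share of the 110 families, Prdx1 at 31.5 ± 0.185%, followed by Prdx2 at 25.2 ± 0.306%. Shares in the alpha-tubulins, where Tuba1b took 50.8 ± 0.514% and Tuba1a 36.2 ± 0.949%, and in the enolases, where Eno1b, with 85.2% of words shared, took 20.3 ± 0.17% beside Eno1, are uncertain for that reason. The same limit holds for other families with many shared words. Among them are those of Jund, with 48.3% of words shared, Slc25a5, with 33.8%, and Fosl1, with 52.6%.

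The libraries differed from each other by little for most genes. Over 14099 genes at a mean of 1 TPM or more the median coefficient of variation (CV, the SD as a percent of the mean) was 7.75% on deposited TPM and 5.09% on rescaled TPM over 13754 genes. Without library 3 the median on deposited TPM was 5.08%. On rescaled TPM the median CV was 11.6% for genes of 1 to 10 TPM, 3.99% for 10 to 100 TPM, 2.703% for 100 to 1000 TPM and 2.37% above 1000 TPM. The CV that counting reads alone would give has medians of 8.73%, 2.07%, 1.002% and 0.446% in the same order. The observed medians lay above the counting medians at each level, and by a larger factor at high levels. Across 8683 genes at 10 rescaled TPM or more the correlation of log2(TPM + 1) between pairs of libraries ran from 0.996 to 0.998, as a description across genes that share libraries. Of these genes, 7 differed over 1.5-fold between libraries 1 and 2, and 12 and 11 between library 4 and libraries 1 and 2. Between library 3 and libraries 1, 2 and 4 the numbers were 32, 30 and 28. The median absolute log2 difference was lowest between libraries 3 and 4, at 0.0432, against 0.0471 to 0.0688 in the other pairs.

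Replication-dependent histones, whose messages end in a stem-loop instead of a poly(A) tail, had the highest median spread of the gene classes. Their 64 measured genes summed to 525, 573, 272 and 496 TPM in libraries 1 to 4, and the median rescaled CV of those at 1 TPM or more was 37.8%, against 2.52% for cytosolic ribosomal proteins and 5.29% for the matrix list. Of the 44 genes of any kind with a rescaled CV over 20% at 10 TPM or more, 21 were named as histones of this kind. Hist1h4k had 26.7, 31.7, 7.54 and 28.5 TPM, Hist1h4d 31.6, 35.2, 13.4 and 29.2 TPM and Hist1h1e 15.001, 20.7, 7.28 and 16.1 TPM. Library 3 was the lowest in each of these. Many histone genes are near copies of each other (71.5% of the words of Hist1h4k were shared), which makes the split between them uncertain.
Lars2, the mitochondrial leucyl-tRNA synthetase gene, moved in the same way at 381, 423, 165 and 418 TPM, and it was the non-histone protein-coding gene with the highest rescaled CV at 10 TPM or more, 37.98%. The libraries' order for Lars2, with library 3 low, is that of Gm42418 and Gm23935 above, and the part of these RNA genes in it was not tested.

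**Figure D5:**
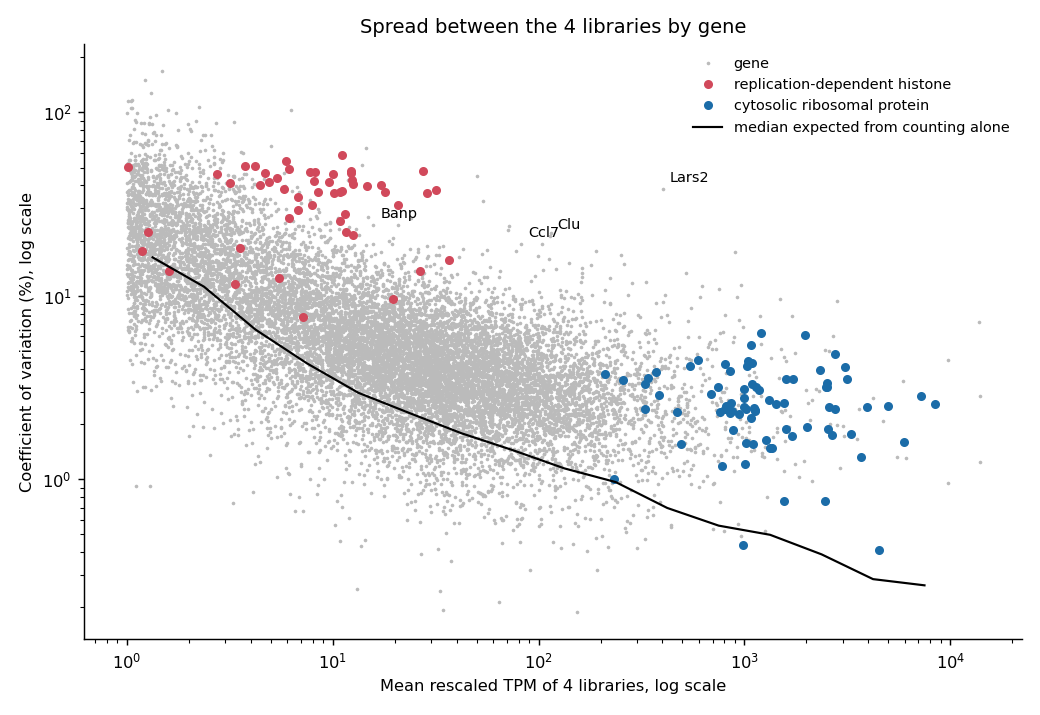
Coefficient of variation over 4 libraries (percent, log axis) against mean rescaled TPM (log axis), with a point per gene at 1 TPM or more. The black line is the median expected from counting alone, and the histones (red, median 37.8%) lie mostly far above the ribosomal proteins (blue, median 2.52%).

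In the same ranking by spread, the next 14 protein-coding genes after histones and Lars2 were described. Each set libraries 1 and 2 on one side and libraries 3 and 4 on the other, with no overlap. On rescaled TPM, Banp had 12.001, 12.8, 19.2 and 18.8, the stress-induced pseudokinase Trib3 9.12, 9.39, 12.7 and 14.1 and the chaperone Hsph1 86.3, 87.1, 119 and 123 in libraries 1 to 4. The chemokine Ccl7 had 70.7, 66.8, 96.9 and 94.97, pyruvate carboxylase Pcx 16.2, 16.2, 22.04 and 23.1 and the cytokine Lif 11.7, 12.6, 17.4 and 16.03. Aldh1l2, Fgf7, Sdf2l1 and Fgf10, with CVs of 19.05%, 18.7%, 18.6% and 18.2%, were likewise higher in both of libraries 3 and 4 than in libraries 1 and 2. The opposite order held for the extracellular chaperone Clu at 135, 135, 93.7 and 92.1, Sertad3 at 26.3, 23.999, 16.4 and 16.6, Acsbg1 at 22.95, 23.2, 16.01 and 16.2 and the cold-inducible RNA-binding Cirbp at 38.3, 38.1, 28.1 and 27.2. These genes were picked for their spread, so their values describe the libraries and are no test. Libraries 2 and 3 also differed in how their deviations followed gene length: the rank correlation of a gene's deviation with its exon length was 0.0673, -0.296, 0.258 and -0.0343 in libraries 1 to 4, across 8683 genes.

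Which genes were steadiest depended on the scale, among protein-coding genes with the same names left out. On deposited TPM the lowest CVs at 10 TPM or more belonged to Pttg1 at 36.9, 36.8, 37.02 and 36.6 TPM, the splicing factor Sf3b5 at 54.7, 55.1, 54.7 and 54.4 TPM and the glyoxalase Hagh at 30.6, 30.4, 30.2 and 30.3 TPM. On rescaled TPM they belonged to Emd at 154, 154, 154 and 155, Zfp777 at 34.4, 34.2, 34.3 and 34.3 and Cops4 at 64.4, 64.7, 64.6 and 64.6. The 10 lowest of either scale had 0 genes in common. On rescaled TPM the 10 genes that were steadiest on deposited TPM had their lowest value in library 3. This follows from the rescaling, which lowers library 3 against the other libraries for any gene that is flat on deposited TPM. The 10 on deposited TPM also held Zfp395, Nubp1, Trappc4, Bahd1, Ppcs, Tomm34 and Rabac1, and those on rescaled TPM also held Isy1, Tmem110, St3gal5, Eif3m, Tnfaip3 and E2f3. Among abundant genes, the ribosomal stalk protein Rplp0 was steady on rescaled TPM at 4495, 4526, 4519 and 4539.6, a CV of 0.412%, and Lgals1 had a CV of 0.958%.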

How the data were processed

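RNA was extracted with RNeasy Plus and libraries were made with NEBNext Ultra II, per the labels' protocols. The submitters' processing notes name bcl2fastq 2.17, STAR 2.5.2b, featureCounts and Subread 1.5.2, and the builds mm10 and GRCh38 with no role given. Poly(A) selection, use of strand and treatment of reads with several matches are not given in the sources used here. The authors deposited 1 table per library with a TPM value for each of 49315 mouse Ensembl gene IDs, and each table summed to 1000000. Low TPM values of genes multiplied by exon length fell on steps of whole reads within 0.05 read in 95.3 to 95.96% of cases, which gave 56376813 to 57800695 reads per library.

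Names, exon lengths and coordinates came from GENCODE M21 on GRCm38, which held 49056 of the IDs. Where several IDs carried the same name, the ID that GENCODE gives that name was used, or else the first. Rescaled TPM sums to 1000000 after miRNA, snoRNA, snRNA and similar genes, Gm42418 and Gm26917 are left out. No listed gene with a GENCODE entry is annotated as rRNA or mitochondrial rRNA. Shared words are distinct 50-base stretches of a gene's transcripts found in another gene's transcripts on either strand. Values are means ± SD over 4 libraries, and no test between groups was made. The steps were tested on simulated data. Computation used Python 3.11.15 with pandas 2.3.3 and numpy 2.4.6, and plots were drawn in matplotlib 3.10.9.

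The libraries described and the gene lists were chosen with earlier results of these data known. Genes are named by rule: the 25 most abundant protein-coding genes and any noncoding gene among the 30 most abundant, up to 5 leading members of each class or receptor list, mesenchymal markers, markers of other cell types at 1 TPM or more, ligands at 10 TPM or more, members of paralog families described, Opa1, and the 15 genes of highest and 10 of lowest CV. The HOX genes, Y-linked genes and receptor and ligand pairs, and other genes named outside this rule, such as markers near 0, were chosen after their values were seen. Of listed members, Areg, Figf, Hist1h2bh, Hist1h2bm, mt-Rnr1 and mt-Rnr2 were not analysed here. A few genes under the rule are not reported here. Alternatives tried were other scales, shares of reads, thresholds, filters and leaving out each library.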

Additional observations from a re-analysis of the deposited data

Results flagged for a closer look

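In groups of 4 libraries, Dixon's test at 95% marked a library that stood apart from the other 3. It was run on the 330 genes named in the text on rescaled TPM and on 33 shares and sums. It marked 21 genes and 3 shares. Chance alone marks about 5% of groups, so a mark on a single gene does not show that a library differs. Some of the genes tested had been chosen for their high or low spread, so the number marked is not set against that rate. On deposited TPM 33 of the genes were marked.

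Library 3 was marked for the share of TPM in the 100 most abundant genes, at 31.4%. On rescaled TPM its share of translation factors was high at 3.97%, led by Eef1a1 at 14165, and its share of nuclear long noncoding and snoRNA host RNAs was low at 0.156%. Of 9 genes marked in library 3, Lars2 had 446, 498, 175 and 488 rescaled TPM in libraries 1 to 4. Hagh, Nubp1, Pttg1, Tomm34 and Zfp395, chosen for steadiness on deposited TPM, were low there at 32.1, 43.7, 39.4, 29.5 and 24.7. The rescaling lowers library 3 for any gene that is flat on deposited TPM, so these marks follow from the choice of genes.

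Opa1 was marked in library 1, with 17.95, 16.6, 16.7 and 16.6 rescaled TPM in libraries 1 to 4, and chance was not tested for it or the genes below. Library 1 was also low for Rpl3 at 911 and Slc25a5 at 1188, and high for Tnfrsf10b at 39.4 and Epcam at 0.177. Library 2 was low for Inhba at 117, Mfn1 at 29.8 and Thy1 at 2.82. Library 3 was high for Smtn at 31.1, and library 4 was low for Grik5 at 30.98. Library 4 was also marked for Isy1, which had 33.09, 33.1, 33.08 and 33.25 in libraries 1 to 4. Isy1 was chosen for its steadiness on rescaled TPM, so its mark is a small step in a gene that hardly varied. Pou5f1 was listed at 0 except in library 3, at 0.0814, and Shh except in library 4, at 0.0864, while Tcf21 was listed at 0 in library 4. Epcam, Pou5f1, Shh and Tcf21 lay below 1 TPM, where values rest on few reads.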

How the results depend on the processing

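Leaving structural RNA genes out of the scale moved each share by more than its SD between libraries, since those genes held 14.4, 15.05, 6.06 and 14.4% of TPM. The 100 most abundant genes then took 28.5%, cytosolic ribosomal proteins 13.2%, mitochondrial DNA messages 5.33%, the actin cytoskeleton 2.88% and matrix genes 1.08%, and the mesenchymal markers summed to 6068. Over protein-coding genes alone these became 29.02%, 13.9%, 5.64%, 3.05%, 1.14% and 6419. As a share of reads in place of TPM, which weights long genes more, the first 5 were 18.7%, 6.53%, 1.86%, 2.93% and 1.78%, so ribosomal proteins and mitochondrial messages weighed less and matrix genes more. The summed markers as a share of reads were not computed. The median CV of 7.75% became 5.09% without structural RNA genes, 4.36% over protein-coding genes, 5.19% with libraries scaled by a trimmed mean, 6.53% at 10 TPM or more and 23.3% with no filter, and leaving out 1 library at a time gave 5.08 to 8.37%, the lowest without library 3. A lead of 80% was held in 48 paralog families and one of 95% in 24. Among families with under 25% shared words, a setting chosen after seeing the data, 20 were led at 90% or more. Counts of genes and of receptors at 1 TPM or more stayed within 1.5 times under each setting tried, a wider band than the SD used for shares. The gene count of 14107 ± 119 became 11451.5 over protein-coding genes alone and 16207.2 at a threshold of 0.5 TPM, both beyond its SD. Of 697 genes under the naming rule, 544 moved by over 1 SD when structural RNA genes were left out and 17 with the trimmed mean. No paired analysis was possible because libraries of 1 group alone were used. Genes below 1 TPM rest on few reads, and genes with shared words on how reads with several matches were treated, which the sources used here do not give.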
